A study of Mus musculus with 12 samples.

Results

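The solute carriers described here are the 152 mouse genes whose symbol starts with Slc and a family number, other than the glucose transporters of family 2 and the metal transporters Slc39a8, Slc39a14, Slc40a1 and Slc11a2, that reached a mean log2 signal of 7 or more in at least 1 of 4 genotypes. They were drawn from 331 such genes (45.9%) among the 18194 genes that a single annotated symbol names on the array, where several probe sets read 1 gene the brightest on average was taken. Members were selected on their measured signal, so the levels below are a description and carry no test. Of all genes on the array, 52.4% reached the same level in a genotype.

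Glomeruli, the filtering units of the kidney, were isolated with magnetic beads from male mice of 6 to 8 weeks, placed in culture at 5000 glomeruli per preparation, deprived of serum and then exposed to murine TNF at 50 ng/ml for 12 hours. The 4 genotypes were C57BL/6J wildtype, Tnfr1-/- (B6.129-Tnfrsf1atm1Mak, without TNF receptor 1), Tnfr2-/- (B6.129-Tnfrsf1btm1Mwm, without TNF receptor 2) and the double-deficient Tnfr1,2-/- obtained by crossing both lines, with 3 independent preparations and 3 arrays per genotype. All 12 arrays come from TNF-exposed glomeruli, so each comparison asks what the loss of a receptor changed under TNF, and no response to TNF itself is measured. Both deletions are present in every cell type of the animal.

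Solute carriers are membrane proteins that move amino acids, ions, metals, nucleotides, vitamins and metabolites across the plasma membrane or into organelles, most of them as exchangers or as cotransporters driven by an ion gradient. Most of the Slc25 family sits in the inner mitochondrial membrane, and the Slc35 family carries nucleotide sugars into the Golgi apparatus and the endoplasmic reticulum. The Slc30 and Slc39 families move zinc in opposite directions. In inflamed cells the supply of arginine and of cystine through such carriers feeds nitric oxide and polyamine synthesis and the making of glutathione.

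The targeted genes were read first. Tnfrsf1b stood at 7.63 ± 0.20 (SD, n = 3) in wildtype and 7.48 ± 0.81 in Tnfr1-/-, against 5.33 ± 0.36 in Tnfr2-/- and 5.48 ± 0.10 in Tnfr1,2-/-. Tnfrsf1a stood at 10.56 ± 0.28 in wildtype and 10.73 ± 0.12 in Tnfr2-/-, against 9.74 ± 0.47 in Tnfr1-/- and 9.29 ± 0.28 in Tnfr1,2-/-, so signal well above the array medians of 5.59 to 5.64 was left, and where its probes lie relative to the deleted part was not tested. The arrays fell into 2 sets by the gap between the 3′ and 5′ probe sets for actin, a measure of how far the labelled RNA reached. It was 0.67 to 1.0 on 7 arrays and 1.82 to 2.30 on the other 5, which were wildtype 3, Tnfr1,2-/- 2 and 3, Tnfr1-/- 3 and Tnfr2-/- 3.

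All podocyte, endothelial and mesangial markers measured averaged 7 or more, and in wildtype the podocyte gene Podxl stood at 13.19 ± 0.16 and the mesangial gene Pdgfrb at 11.95 ± 0.41. Of the 7 proximal tubule markers measured, 5 lay under the array medians on average, among them the endocytic receptor Lrp2 at 4.02 ± 0.68 in wildtype. Of the 6 markers of distal tubule, loop and collecting duct measured, 3 lay under the medians and 2 averaged 7 or more. Their summed linear signal ran from 319 to 723 in wildtype and 632 to 730 in Tnfr2-/-. It ran from 525 to 825 in Tnfr1,2-/- and 454 to 1350 in Tnfr1-/-. All 3 parietal epithelium markers averaged 7 or more. Most listed carriers that define the tubule were dim. Of the 17 listed, which include the sodium-glucose cotransporter Slc5a2 and the sodium-chloride cotransporter Slc12a3, only Slc7a7, a carrier of basic amino acids, reached the threshold, at 7.11 ± 0.35 in wildtype.

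The 152 genes span 41 families. By the cargo of their family they comprised 32 mitochondrial carriers, 26 amino acid carriers, 24 carriers of nucleotide sugars and sugar phosphates, 21 of zinc, copper, magnesium, manganese or iron, 18 of sodium, potassium, chloride, bicarbonate or protons, 15 of peptides, nucleosides, vitamins, choline or heme, 6 of organic ions and bile acids, 5 of monocarboxylates, 3 of phosphate, sulfate and dicarboxylates, and 2 of a family left unclassified. The share of a class that reached the threshold ranged widely: 32 of 44 mitochondrial carriers, 24 of 35 nucleotide sugar carriers and 21 of 28 metal carriers did, but 6 of 29 organic ion carriers and 3 of 17 phosphate and sulfate carriers. A symbol is not always a transporter: Slc9a3r1 and Slc9a3r2 encode scaffold proteins that bind sodium-proton exchangers, and Slc4a1ap and Slc7a6os are named for a partner or a neighbouring gene.

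**Figure D1:**
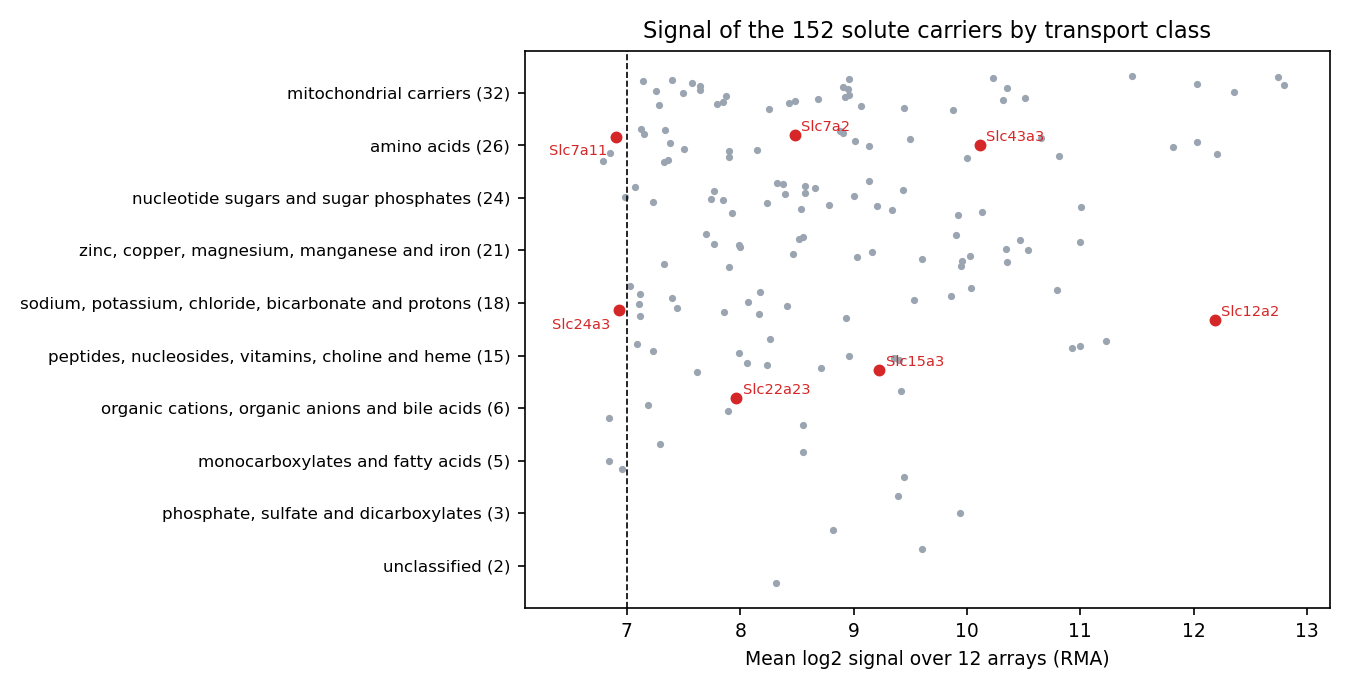
Mean log2 signal over 12 arrays (x axis) of each of the 152 solute carriers, in rows by transport class with the number of members in brackets. The dashed line marks 7, red points are the 7 members called in a comparison, and 8 members average under 7 because only some genotypes reached it. Signals of different probe sets are not a ranking of transcript abundance.

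Most members were present in every genotype. All 4 genotypes reached the threshold for 132 members, 3 for 10, 2 for 6 and 1 for 4. Over the 12 arrays the member means ran from 6.79 to 12.80 with a median of 8.56, and the median SD within a genotype was 0.20 in wildtype and 0.19 in Tnfr2-/-, against 0.33 in Tnfr1,2-/- and 0.29 in Tnfr1-/-. The 10 probe sets with the highest signal belonged to the mitochondrial carriers Slc25a39, Slc25a5, Slc25a3, Slc25a4 and Slc25a51, the amino acid carriers Slc38a2, Slc6a6 (taurine) and Slc3a2 (the heavy chain that brings several light chains to the membrane), the chloride cotransporter Slc12a2 and the heme carrier Slc48a1. These 10 cannot be ordered by transcript number, since probe sets differ in affinity.

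Of the 10, Slc12a2 alone was called, and it is described with the ion carriers. Slc25a5, an exchanger of ADP for ATP, averaged 12.76 ± 0.19 in wildtype and 12.75 ± 0.13 in Tnfr2-/-, against 12.74 ± 0.26 in Tnfr1,2-/- and 12.74 ± 0.08 in Tnfr1-/-. The phosphate carrier Slc25a3 lay between 12.17 and 12.45 on all 12 arrays, and its change in Tnfr1,2-/- was -0.08 ± 0.11 (SE, limma adjusted p = 0.872). At the threshold, the members with the lowest best genotype were Slc38a4 at 7.01 in Tnfr1,2-/-, Slc1a5, a glutamine carrier, at 7.03 in Tnfr2-/- and Slc16a3, a lactate exporter, at 7.13. Just outside were Slc45a1 at 6.99, Slc22a17 at 6.99 and Slc6a2 at 6.97.

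A gene was called where limma's adjusted p (Benjamini-Hochberg over all 18194 genes) was under 0.05 and the change was at least 1.5-fold. In Tnfr1,2-/- against wildtype, 6 of the 152 members were called (3.95%), beside 1.3% of all genes. Of them 5 were lower, beside 0.879% of all genes, and 1 was higher, beside 0.418%. These shares are no test, since a gene that fell to background in a mutant entered through its wildtype signal. Of the 331 genes before the threshold, 7 were called (2.11%). The median change over the members was -0.07 and over all genes 0.00.

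**Figure D2:**
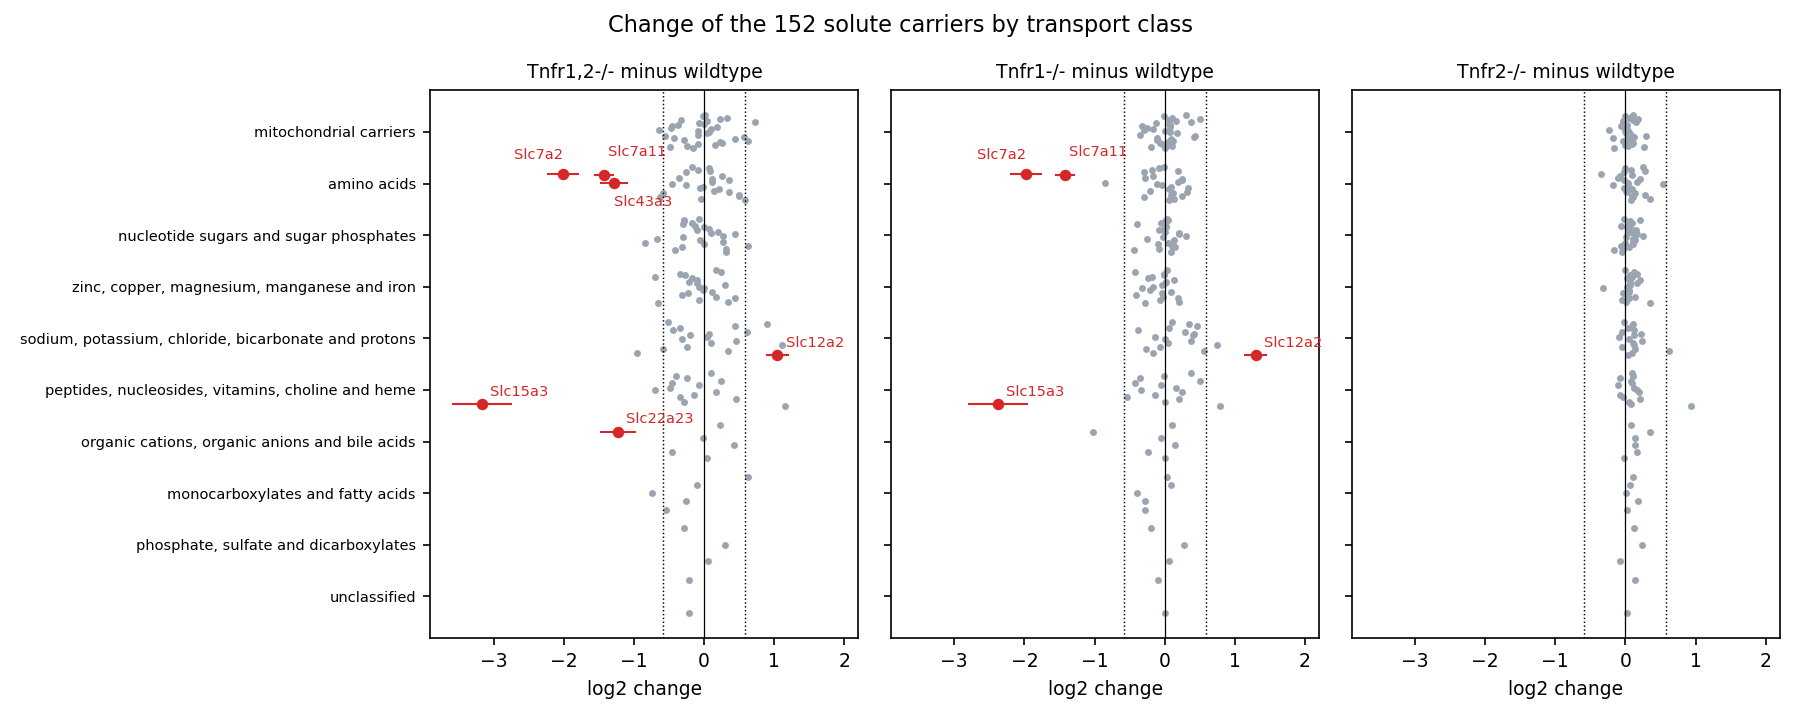
Log2 change (x axis) of the 152 solute carriers in rows by transport class, for each mutant minus wildtype. Red points with SE bars are called members, dotted lines mark 1.5-fold, and the Tnfr2-/- panel holds no called member.

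In Tnfr1-/- against wildtype 4 members were called (2.63%), beside 1.2% of all genes, with 3 lower (0.72% of all genes) and 1 higher (0.484% of all genes). All 4 are among the 6 called in Tnfr1,2-/-, and both comparisons share the wildtype arrays. In Tnfr2-/- against wildtype no member was called by SAM, and the share of all genes called by SAM is not given here. The paper's SAM lists Tnfrsf1b among a few genes lower there. By limma no member was called either, beside 0% of all genes. At an unadjusted limma p under 0.05 there was 1 member, beside 128 of all genes. The limma rule thus missed even the deleted gene Tnfrsf1b, whose signal was lower in Tnfr2-/-. The empty list is therefore no evidence that the members were unchanged there. The effect of the Tnfr1 locus was taken as the mean of the 6 arrays of both genotypes without the receptor minus the mean of the 6 with it. It was called for 7 members, beside 2.52% of all genes, with 5 lower (1.59% of all genes) and 2 higher (0.929% of all genes). Of these 7, 5 reached the threshold in all 4 genotypes, while Slc7a11 entered through the genotypes with Tnfr1 and Slc24a3 through those without it, so this count is no support either. Of the 331 genes before the threshold, 9 were called for the Tnfr1 locus (2.72%). The same effect of the Tnfr2 locus was called for 0 members, beside 0.0275% of all genes, and 0 members had an unadjusted p under 0.05, beside 176 of all genes.

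Amino acid carriers held 3 of the called genes, and all 3 fell. Slc7a2 (probe set 1436555_at) encodes CAT2, an inducible carrier of arginine and other cationic amino acids. Its log2 signal was 9.40, 9.48 and 9.81 in wildtype and 9.51, 8.89 and 9.25 in Tnfr2-/-, against 7.86, 7.27 and 7.54 in Tnfr1,2-/- and 7.23, 7.92 and 7.60 in Tnfr1-/-. The 6 arrays without Tnfr1 lay below the other 6 with no overlap. The fall was 4.03-fold in Tnfr1,2-/- (log2 change -2.01 ± 0.23 SE, limma adjusted p = 0.000879) and 3.95-fold in Tnfr1-/- (log2 change -1.98 ± 0.23, limma adjusted p = 0.0010), while Tnfr2-/- differed from wildtype by -0.35 ± 0.23 (limma adjusted p = 1).

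Slc7a11 (1420413_at) encodes xCT, the light chain of the antiporter that brings in cystine in exchange for glutamate. It read 7.66, 7.61 and 7.49 in wildtype and 7.59, 7.54 and 7.93 in Tnfr2-/-, against 6.07, 6.27 and 6.15 in Tnfr1,2-/- and 6.29, 6.26 and 5.97 in Tnfr1-/-. Both genotypes without Tnfr1 were below every other array and near the array medians. Slc7a11 had the smallest adjusted p among the members, with a change of -1.43 ± 0.14 in Tnfr1,2-/- (2.69-fold lower, limma adjusted p = 0.000392) and -1.42 ± 0.14 in Tnfr1-/- (2.67-fold lower, limma adjusted p = 0.000425). Its partner in the membrane, the heavy chain Slc3a2, changed by -0.26 ± 0.27 and -0.04 ± 0.27 and was not called.

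The 250 bases before the RefSeq start of Slc7a11 (GRCm38.p6, chr3:50443614-50443863, minus strand, written 5′ to 3′ along the gene) and of Slc22a23, another member that fell (chr13:34345219-34345468, minus strand), are shown because both genes moved the same way and have an entry in the RefSeq promoter table. Capitals mark matches to any of 4 motifs searched on both strands: a kappa B motif, TGATGNAA (ATF4 type), TGANTCA (AP-1 type) and TGACNNNGC (antioxidant response type). The last pair can match overlapping letters.
Slc7a11: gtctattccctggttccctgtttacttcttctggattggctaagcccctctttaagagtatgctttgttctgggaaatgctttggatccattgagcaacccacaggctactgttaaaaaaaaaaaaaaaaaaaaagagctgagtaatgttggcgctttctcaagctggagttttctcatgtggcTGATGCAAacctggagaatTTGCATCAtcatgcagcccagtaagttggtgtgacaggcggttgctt
Slc22a23: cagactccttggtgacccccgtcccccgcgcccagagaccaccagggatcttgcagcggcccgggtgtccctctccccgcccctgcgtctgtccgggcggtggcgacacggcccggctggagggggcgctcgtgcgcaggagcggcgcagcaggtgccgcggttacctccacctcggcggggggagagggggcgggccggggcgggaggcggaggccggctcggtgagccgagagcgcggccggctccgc
The Slc7a11 window held TGATGNAA at -66 to -59 on the gene's strand and at -47 to -40 on the other, and the Slc22a23 window held none of the 4. TGATGNAA occurred in 3.45% of all 32851 windows of this length and in 2.94% of the 170 windows of 124 members, those of Slc7a11, Slc7a7, Slc49a4 and Slc50a1. The kappa B letters occurred in 1.21% of all windows and in 1 member, Slc37a4, and other forms of a kappa B site were not searched. The AP-1 letters occurred in 6.75% of all windows and 5.88% of member windows, and the antioxidant response letters in 10.2% and 17.1%. The Slc24a3 windows held none of the 4. GC content was 43.2% for Slc7a11 and 78.4% for Slc22a23.

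Slc43a3 (1422788_at), of an amino acid carrier family although the protein itself is known as a nucleobase transporter, was the third. Its values were 10.67, 10.75 and 10.50 in wildtype and 10.93, 10.58 and 10.51 in Tnfr2-/-, against 9.40, 9.34 and 9.33 in Tnfr1,2-/- and 9.65, 10.27 and 9.44 in Tnfr1-/-. Tnfr1-/- array 2 sat closest to the wildtype arrays, still without overlap. The fall of 2.44-fold in Tnfr1,2-/- was called (-1.28 ± 0.20, limma adjusted p = 0.00675), and the difference of -0.85 ± 0.20 in Tnfr1-/- was not (limma adjusted p = 0.0817). Without Tnfr1-/- array 2 the latter was -1.09 (limma adjusted p = 0.00858), and with the array set as a block it was called as well (limma adjusted p = 0.0165).

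The other 23 amino acid carriers were not called in any comparison, and the median change of all 26 was -0.02 in Tnfr1,2-/-, 0.02 in Tnfr1-/- and 0.08 in Tnfr2-/-. Slc38a2, a sodium-coupled carrier of small neutral amino acids, differed by 0.36 ± 0.20 in Tnfr1,2-/- and Slc6a6 by 0.35 ± 0.19.

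The peptide carrier Slc15a3 moved farthest. It encodes PHT2, which carries histidine and small peptides across the lysosomal membrane, and is read by 1 probe set (1420697_at). It gave 10.72, 10.74 and 10.33 in wildtype and 10.999, 10.76 and 10.24 in Tnfr2-/-, against 7.89, 7.05 and 7.35 in Tnfr1,2-/- and 8.13, 9.30 and 7.22 in Tnfr1-/-. No array without Tnfr1 reached the others, and the Tnfr1-/- arrays spread over more than 2 log2 units. The fall was 8.96-fold in Tnfr1,2-/- (-3.16 ± 0.43, limma adjusted p = 0.00289) and 5.19-fold in Tnfr1-/- (-2.38 ± 0.43, limma adjusted p = 0.0198). The Tnfr1-/- call was lost without wildtype array 1, wildtype array 2 or Tnfr1-/- array 1, with a limma adjusted p of at most 0.104, and it was lost in the fit of those 6 arrays alone (limma adjusted p = 0.116) and with the arrays of set 1 alone (limma adjusted p = 0.0628). The difference between array set 2 and set 1 within genotypes was -0.74 for Slc15a3. Within set 1 the Tnfr1,2-/- difference was -2.84 and within set 2 it was -3.13.

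Macrophages are a cell type rich in lysosomes that isolated glomeruli can hold. All 5 macrophage markers listed were measured, 4 averaged 7 or more, and none was called in a comparison with wildtype. Their summed linear signal ran from 3994 to 6367 in wildtype and 4174 to 7352 in Tnfr2-/-, against 2958 to 4181 in Tnfr1,2-/- and 3294 to 6573 in Tnfr1-/-. Their part in the Slc15a3 result was not tested. In RNA from whole glomeruli, fewer cells of a type and less RNA per cell cannot be told apart.

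The plasma membrane peptide carrier of the same family, Slc15a2, was not called. Its wildtype arrays were 7.46, 5.81 and 7.41, its Tnfr1,2-/- arrays 7.84, 8.71 and 7.60, its Tnfr1-/- arrays 7.80, 8.06 and 7.20 and its Tnfr2-/- arrays 7.76, 7.09 and 8.64. Wildtype array 2 stood alone at the bottom. The differences of 1.16 ± 0.50 in Tnfr1,2-/- and 0.93 ± 0.50 in Tnfr2-/- rested in part on it. Of the remaining 13 members of the class, which include the nucleoside carrier Slc29a1 and the choline carriers Slc44a1 and Slc44a2, none was called.

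Slc22a23 (1453004_at), an organic ion family member whose cargo is not established, read 8.61, 8.50 and 8.22 in wildtype and 9.01, 8.72 and 8.64 in Tnfr2-/-, against 7.53, 6.56 and 7.57 in Tnfr1,2-/- and 7.39, 7.66 and 7.19 in Tnfr1-/-. The arrays with and without Tnfr1 did not overlap, and the Tnfr2-/- arrays were all above the wildtype arrays by a small margin. The Tnfr1,2-/- difference of -1.23 ± 0.25 was called (2.34-fold, limma adjusted p = 0.0403). The Tnfr1-/- difference of -1.03 ± 0.25 was not (limma adjusted p = 0.104), although SAM and the fit with the array set as a block called it (limma adjusted p = 0.0195 with the block). The Tnfr1,2-/- call was lost in 8 of 12 fits that left out an array, namely each wildtype array, each Tnfr2-/- array, Tnfr1,2-/- array 2 and Tnfr1-/- array 1, where the limma adjusted p rose to at most 0.180. The paper's SAM on the same arrays listed the reverse for Slc22a23: lower in Tnfr1-/- and not significant in Tnfr1,2-/-. None of the other 5 organic ion carriers was called.

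Among the carriers of sodium, potassium and chloride the called change went up. Slc12a2 (1417622_at) encodes NKCC1, which brings sodium, potassium and chloride into cells. It read 11.69, 11.40 and 11.70 in wildtype and 11.91, 11.46 and 11.52 in Tnfr2-/-, against 12.58, 12.52 and 12.81 in Tnfr1,2-/- and 12.71, 12.97 and 12.99 in Tnfr1-/-. Every array without Tnfr1 was above every array with it. The rise was 2.06-fold in Tnfr1,2-/- (1.04 ± 0.16, limma adjusted p = 0.00648) and 2.46-fold in Tnfr1-/- (1.30 ± 0.16, limma adjusted p = 0.0020). Leaving out any array kept both calls.

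Slc24a3 (1424308_at), which encodes a plasma membrane exchanger that trades sodium for calcium and potassium, was called for the Tnfr1 locus. It read 6.35, 6.33 and 6.62 in wildtype and 6.58, 6.59 and 6.49 in Tnfr2-/-, against 7.41, 7.01 and 8.21 in Tnfr1,2-/- and 6.65, 7.61 and 7.30 in Tnfr1-/-. Tnfr1-/- array 1 was only just above the highest wildtype array. The effect of the Tnfr1 locus was 0.87 ± 0.21 (1.83-fold, limma adjusted p = 0.0493), and neither single comparison with wildtype was called (limma adjusted p = 0.143 in Tnfr1,2-/-). The call was lost in 10 of 12 fits without an array, held only without Tnfr1,2-/- array 2 or Tnfr1-/- array 1, and the limma adjusted p reached at most 0.129.

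Mesangial cells contract and hold the capillary loops in place. All 4 mesangial markers averaged 7 or more, and their summed linear signal ran from 6474 to 7804 in wildtype and 6212 to 8395 in Tnfr2-/-, against 7435 to 8975 in Tnfr1,2-/- and 9303 to 12603 in Tnfr1-/-. The integrin Itga8 was the marker called, 1.40 ± 0.20 higher in Tnfr1-/- (limma adjusted p = 0.00524), with 0.94 ± 0.20 in Tnfr1,2-/- (limma adjusted p = 0.0562). Of the 5 endothelial markers Kdr was called in Tnfr1-/-, at 1.09 ± 0.22 (limma adjusted p = 0.0414). The summed linear signal of the 5 ran from 3584 to 4689 in wildtype and 4286 to 6139 in Tnfr1,2-/-. It ran from 5164 to 7090 in Tnfr1-/- and 5001 to 6671 in Tnfr2-/-, both above wildtype without overlap. The 4 podocyte markers measured had a summed linear signal of 17945 to 22431 in Tnfr1,2-/-, above the 11976 to 15474 of wildtype without overlap, and of 9192 to 20790 in Tnfr1-/- and 10723 to 17839 in Tnfr2-/-. None of the 4 was called, and their median change in Tnfr1,2-/- was 0.59. The part of the mesangial, endothelial and podocyte markers in the rise of Slc12a2 and Slc24a3 was not tested.

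**Figure D3:**
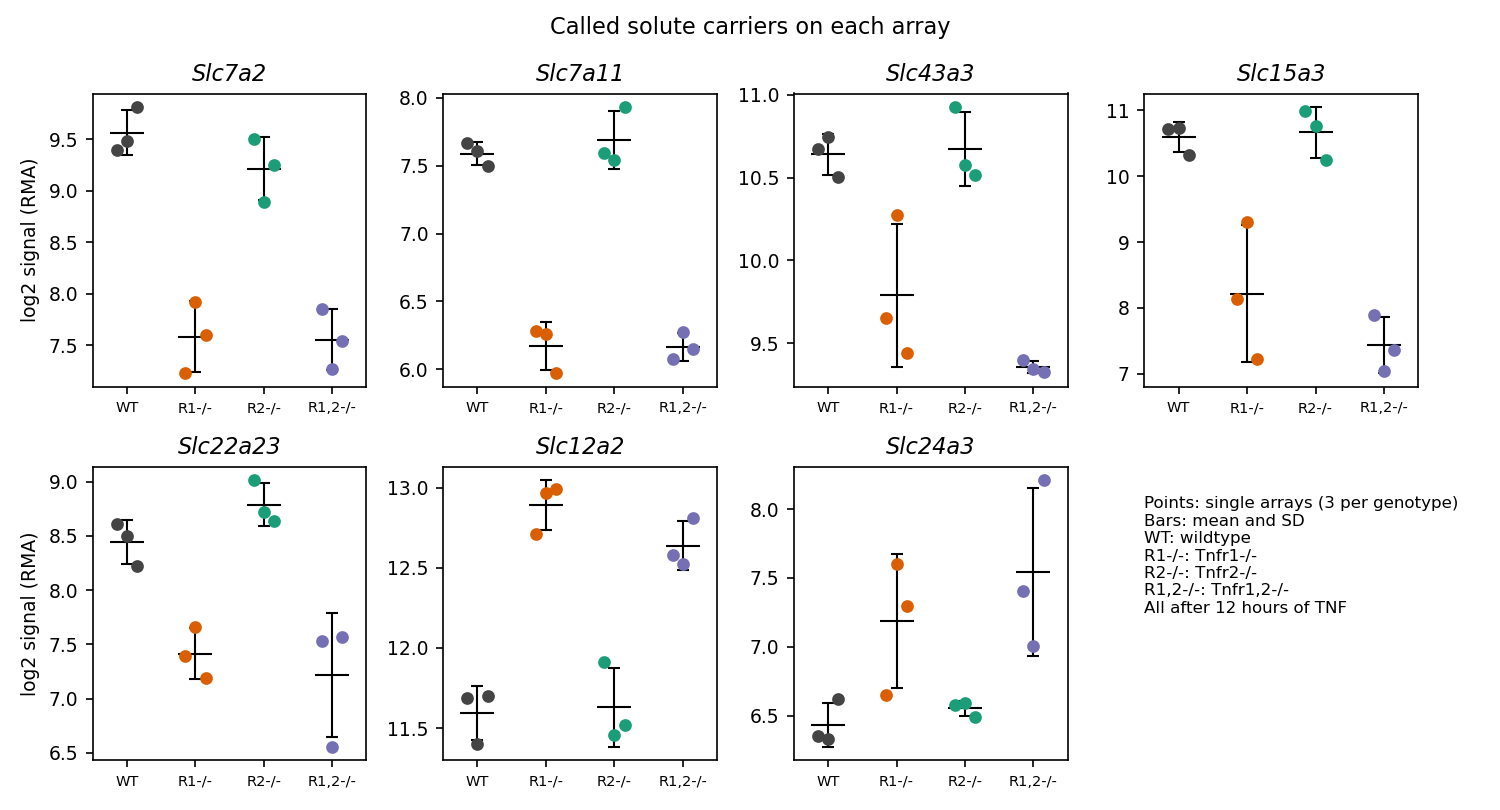
Log2 signal (y axis, own scale per gene) of the 7 called members on each of the 12 arrays, by genotype, with mean and SD of 3 arrays. For each gene the 6 arrays of the genotypes without Tnfr1 lie apart from the 6 with it, below them for 5 genes and above them for Slc12a2 and Slc24a3. All 7 were called for this same contrast of 6 against 6 arrays, so their separation is no further test.

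Direct comparisons of mutants gave the same 6 or fewer members. Tnfr1,2-/- against Tnfr2-/- called 6, beside 1.39% of all genes, and the largest was Slc15a3 at -3.24 ± 0.43 (9.43-fold lower, limma adjusted p = 0.00238). Tnfr2-/- against Tnfr1-/- called 5, beside 1.2% of all genes. Tnfr1,2-/- against Tnfr1-/- called 0 members, beside 0.0055% of all genes. There 3 of 152 members had an unadjusted p under 0.05, beside 472 of 18194 genes. The interaction of both loci called 0 members, beside 0% of all genes, with 2 members at an unadjusted p under 0.05, beside 245 of all genes. Neither share of members was above that of all genes. The lowest p of the interaction among members was that of Slc12a5, a potassium-chloride exporter, at -0.84 ± 0.24 (unadjusted p = 0.00535). Its wildtype arrays of 6.99, 6.45 and 6.78 lay below the Tnfr2-/- arrays of 7.41, 7.16 and 7.50, with a difference of 0.62 ± 0.17 (unadjusted p = 0.00413, limma adjusted p = 1).

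Smaller effects of the Tnfr1 locus passed the adjusted p without reaching 1.5-fold. With the fold threshold dropped, 11 of the 152 members passed, beside 511 of all 18194 genes (2.81%). Both counts include the genes already called, and 4 of the 11 members were not among the 7 called. The folate carrier Slc19a1 changed by -0.43 ± 0.09 (limma adjusted p = 0.0268) and the choline carrier Slc44a1 by -0.48 ± 0.11 (limma adjusted p = 0.0430). The aromatic amino acid carrier Slc16a10 changed by -0.36 ± 0.08 (limma adjusted p = 0.0359), and the scaffold gene Slc9a3r1 by 0.40 ± 0.09 (limma adjusted p = 0.0337).

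The remaining classes held no called member in a comparison with wildtype or for a locus. Among 32 mitochondrial carriers the changes in Tnfr1,2-/- ran from -0.65 to 0.73 with a median of 0.00, and the smallest p was that of Slc25a24, a carrier of ATP-magnesium and phosphate, at 0.57 ± 0.17 (limma adjusted p = 0.236). The 24 nucleotide sugar carriers ran from -0.84 to 0.63 with a median of -0.06. Among them Slc35c1, the carrier of GDP-fucose, differed by -0.67 ± 0.31 (limma adjusted p = 0.597). The 21 metal carriers ran from -0.71 to 0.44 with a median of -0.07, and the zinc exporter Slc30a1 stood at 9.81 ± 0.19 in wildtype and 10.15 ± 0.18 in Tnfr1,2-/-.

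No carrier of lactate or phosphate was called. Slc16a1, a monocarboxylate carrier, averaged 9.65 ± 0.18 in wildtype and 9.11 ± 0.35 in Tnfr1,2-/- (-0.54 ± 0.20, limma adjusted p = 0.442). Slc16a3 averaged 7.13 ± 0.38 and 6.39 ± 0.71. The phosphate carrier Slc20a1 averaged 9.74 ± 0.09 and 10.03 ± 0.37, with a difference of 0.29 ± 0.17 (limma adjusted p = 0.703).

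In Tnfr1,2-/- a further 18 members differed from wildtype by 1.5-fold or more without being called, 10 lower and 8 higher. No share of all genes stands beside this count, so it is no sign of an excess among members. With the array set as a block 1 of the 10 and 3 of the 8 still differed by that much. Tnfr1,2-/- has 2 arrays in set 2 where each other genotype has 1. Within genotypes 25 members were at least 1.5-fold lower in set 2 and 2 were higher, which is 17.8% of members beside 11.4% of all genes. The mitochondrial carrier Slc25a25 was 1.60 lower, with 9.35 and 9.36 on wildtype arrays 1 and 2 and 7.95 on array 3. The nucleoside carrier Slc29a1 was 1.29 lower, with 9.62, 9.72 and 8.19. Called members other than Slc15a3 differed by less than 1.5-fold between the sets, and all 6 calls in Tnfr1,2-/- were kept with the block.

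**Figure D4:**
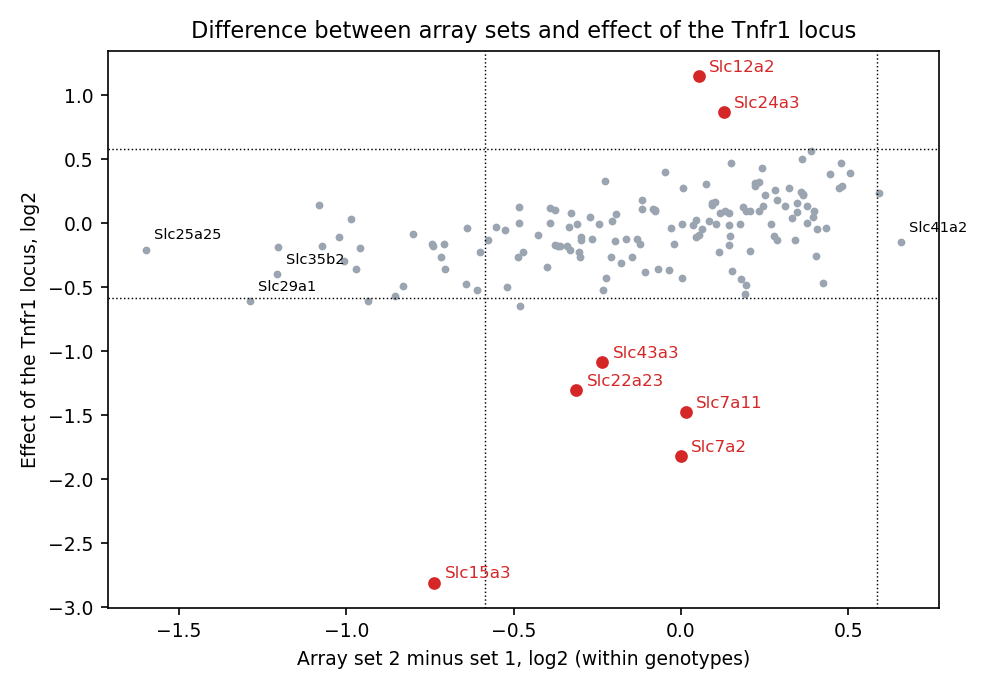
Difference between array set 2 and set 1 within genotypes (x axis, log2) and effect of the Tnfr1 locus (y axis, log2) for the 152 members, with dotted lines at 1.5-fold. The called members (red) stand out along the y axis, and the members farthest left, led by Slc25a25 at -1.60, lie within or near the dotted lines of the y axis.

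Other probe sets of the called genes gave a further reading from the same RNA. Slc7a2 has 4, and the effect of the Tnfr1 locus was -1.82 on the set used, -1.55 and -1.51 on 2 dimmer sets and -0.14 on the fourth, which averaged 3.22, under the array medians. Slc7a11 has 2, with -1.47 and -1.31. Slc12a2 has 3, with 1.15, 1.58 and 1.42. On the set at 1.58 a single array without Tnfr1 overlapped the others, and the 3 other called genes that fell have 1 probe set each, as does Slc24a3.

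**Figure D5:**
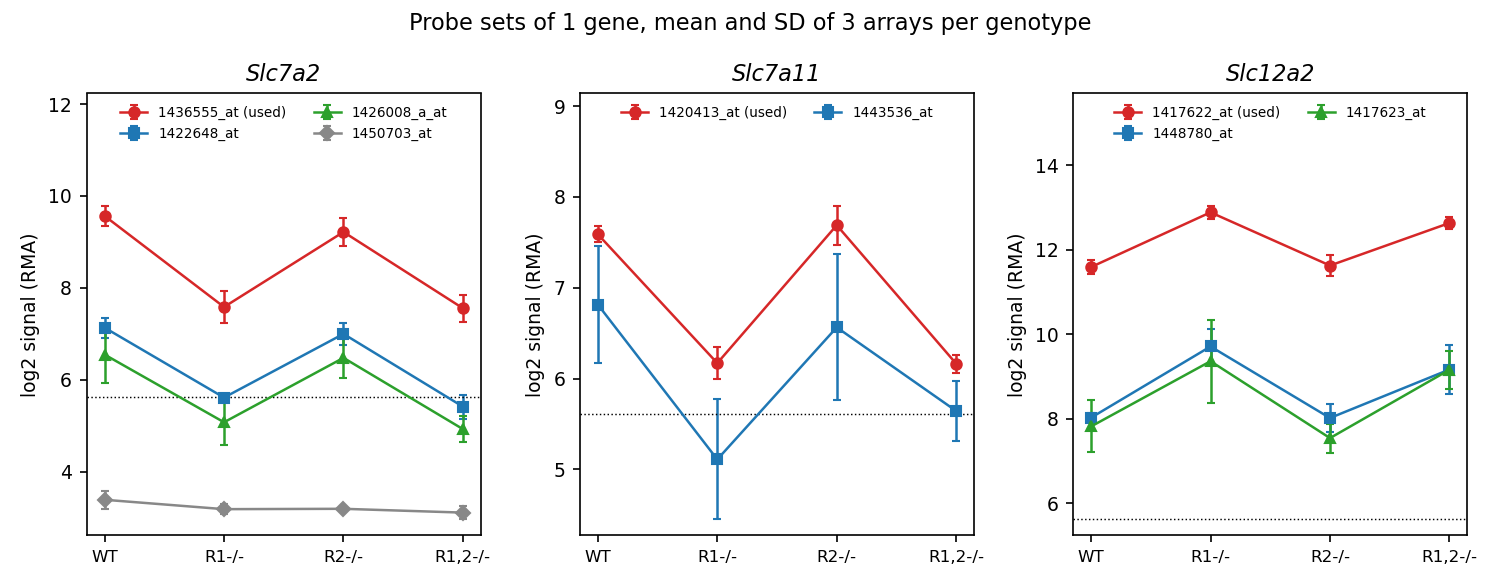
Mean log2 signal and SD of 3 arrays per genotype for every probe set of Slc7a2, Slc7a11 and Slc12a2, with the middle of the array medians as a dotted line. Probe sets above that line in wildtype fell in both genotypes without Tnfr1 for Slc7a2 and Slc7a11 and were higher there for Slc12a2.

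Genes that work beside these carriers were counted from lists. Of 13 measured genes of arginine metabolism 1 was called in Tnfr1,2-/- and in Tnfr1-/-, beside 0.879% and 0.72% of all genes called lower. It was the mitochondrial arginase Arg2, which the paper already lists as lower in both genotypes on the same arrays. The list was chosen with earlier results known, so the shares are no test. Arg2 averaged 8.24 ± 0.34 in wildtype and 8.08 ± 0.19 in Tnfr2-/-, against 5.56 ± 0.27 in Tnfr1,2-/- and 5.55 ± 0.14 in Tnfr1-/-. Its change was -2.67 ± 0.20 in Tnfr1,2-/- (limma adjusted p = 3.26e-05). Arg1 was called only for the Tnfr1 locus, at -1.35 ± 0.24 (limma adjusted p = 0.00871), with means under 6 throughout. The most abundant of the list by signal, Odc1 and Oat, were not called.

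Of 14 measured genes of cystine use and glutathione, which include both subunits of glutamate-cysteine ligase (Gclc and Gclm) and the factors Nfe2l2 and Atf4, 0 were called in any comparison with wildtype by limma, and their median change was -0.08 in Tnfr1,2-/- and -0.21 in Tnfr1-/-. Of 11 measured genes of the sodium pump and the kinases that set chloride cotransport 0 were called, with a median of 0.10 in Tnfr1,2-/- and 0.30 in Tnfr1-/-. Of 8 measured genes of lysosomal sensing, which include Unc93b1 and Lamp1, 0 were called, with a median of -0.07 in Tnfr1,2-/-.

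The ABC transporters, which pump their cargo with ATP and are not solute carriers, held 3 genes of 17 that rose in Tnfr1,2-/- and in Tnfr1-/-, beside 0.418% and 0.484% of all genes called higher. The paper already lists these 3 as raised in both genotypes on the same arrays. The gene list was chosen with earlier results known, so the shares are no test. Abcc9, the sulfonylurea receptor of a potassium channel, was 2.40 ± 0.32 higher in Tnfr1,2-/- (limma adjusted p = 0.00251), from 6.02 ± 0.52 in wildtype to 8.42 ± 0.53. The drug exporter Abcg2 was 1.34 ± 0.17 higher (limma adjusted p = 0.00207) and Abcb1a, P-glycoprotein, 1.23 ± 0.24 higher (limma adjusted p = 0.0336). Abcb1b was lower for the Tnfr1 locus, at -1.03 ± 0.17 (limma adjusted p = 0.00524). The median change over the 17 was -0.24 in Tnfr1,2-/- and 0.05 in Tnfr1-/-.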

How the data were processed

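Glomerular RNA of 12 preparations (4 genotypes, 3 each) was hybridised to Affymetrix mouse whole-genome arrays. The authors scanned the arrays and normalized them together by the robust multichip average, so the deposited values are on the log2 scale and were taken unchanged; an array has no read depth, and the number of arrays limits the precision. Of 45101 probe sets, 64 are controls, 34958 carry 1 symbol, 932 several and 9211 none, and only those with 1 symbol were used.

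For each of 18194 genes the brightest probe set was kept. Models over all 4 genotypes were fitted with limma 3.58.1 in R 4.3.3 (8 residual degrees of freedom), and p-values were adjusted by Benjamini-Hochberg over all genes. Figures and summaries used Python 3.11.15. The call rule joined a limit of 0.05 on the adjusted p with one of 1.5 on the fold. Fits were tested on simulated data. With 3 arrays a group an exact permutation test of a single gene over 20 regroupings cannot go below 0.10, so none was run. SAM uses the same 20 regroupings but pools them over all genes. P-values measure the spread between these preparations. Same-numbered arrays did not all deviate together, so the replicate number was not a block in the model and was tried as an alternative.

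Members, gene lists and named genes were chosen with earlier results of these data known. Named are members called in any comparison, the 10 with the highest mean, those beside the threshold, per class the smallest p-values in Tnfr1,2-/-, 6 genes that the study lists, and from other lists called and abundant genes. Slc12a5, Slc15a2, Slc25a25 and Slc29a1 were named after their values were seen. Alternatives included other probe set rules, scalings, filters, array weights, SAM (own code), blocks and leaving out each array.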

Additional observations from a re-analysis of the deposited data

How the results depend on the processing

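The 17 calls of members kept their direction under every alternative run. Of 394 alternative values of these calls 360 stayed called and 34 did not. The count in Tnfr1,2-/- was 21 with array weights and 1 with the arrays of set 1 alone, where Tnfr1,2-/- has a single array that is assumed to vary like the others; the 6 main calls are among the 21 and Slc7a11 is the 1. Without a fold threshold the count for the Tnfr1 locus was 11. Leaving out each array in turn gave 5 to 7 calls in Tnfr1,2-/-, 3 to 5 in Tnfr1-/-, 6 to 8 for the Tnfr1 locus and 0 to 0 in Tnfr2-/- and for the Tnfr2 locus. Deviations from the genotype means of same-numbered arrays correlated with a median r of 0.49 (-0.23 to 0.73 over 18 pairs), against -0.34 over 36 pairs of different number. The 3 pairs below 0 all held Tnfr1,2-/- array 2, and the labels name no shared batch behind a number, so the numbers were not taken as pairing. With the replicate block 9 members were called in Tnfr1,2-/-, adding Slc24a3 (limma adjusted p = 0.0420), Slc25a40 and Slc35b2, 6 in Tnfr1-/-, adding Slc22a23 (0.0471) and Slc43a3 (0.0280), and 8 for the Tnfr1 locus, adding Slc11a1. Slc24a3 missed the threshold for the Tnfr1 locus with median centring (limma adjusted p = 0.0503), cyclic loess (0.0675), array weights (0.0563) and without probe sets ending in _s_at or _x_at (0.0525). Slc7a11 and Arg2 without Tnfr1 and Abcc9 with it lay near the array medians, which limits the fold that can be measured.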

Other observations

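Some solute carriers under the threshold of 7 were called all the same. Slc9a9, a sodium-proton exchanger of endosomes, stood at 5.07 ± 0.20 (SD, n = 3) in wildtype and 5.34 ± 0.08 in Tnfr2-/-, against 5.77 ± 0.05 in Tnfr1,2-/- and 5.78 ± 0.19 in Tnfr1-/-, and was 0.70 ± 0.14 (SE) higher in Tnfr1,2-/- (limma adjusted p = 0.0350). The zinc importer Slc39a4 averaged 5.64 ± 0.76 in wildtype and 6.17 ± 0.45 in Tnfr2-/-, against 4.31 ± 0.43 in Tnfr1,2-/- and 4.74 ± 0.13 in Tnfr1-/-, with an effect of the Tnfr1 locus of -1.38 ± 0.25 (limma adjusted p = 0.00975). The mitochondrial glutamate carrier Slc25a18 showed an effect of -0.88 ± 0.16 (limma adjusted p = 0.0107), and its start lies 4.58 Mb from that of Tnfrsf1a in GRCm38.p6. It is the only called solute carrier of the 6 whose start lies within 10 Mb of a targeted gene, and the part of the targeted chromosome in its result was not tested. The highest genotype mean among these 3 genes was 6.17.

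The 5 probe sets of Slc25a39, a mitochondrial carrier linked to glutathione, read the array sets differently. Probe set 1453111_a_at lay between 10.70 and 11.12 on the 7 arrays of set 1 and between 8.52 and 9.01 on the 5 arrays of set 2, while 1456176_x_at lay between 10.84 and 11.36 and between 11.09 and 11.57. On the first of these Tnfr1,2-/- was 0.67 below wildtype, and on the other it differed by 0.01.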
